A study of Rattus norvegicus with 4 samples.

Results

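The genes described here are 39 listed nuclear receptors and coregulators, read in the livers of 4 rats. They were found by their symbol in the platform's probe annotation. Of the 39, 35 had at least 1 probe of their own, with 62 probes in all among the 33849 gene probes of the array. Nr2c1, Nr6a1 and Esrrg were not matched to a probe. The only probe listed for Rxra is also listed for a second gene, so it was left unnamed, and these 4 genes were not analysed here. A probe was kept when, in at least 1 group, its spot was above background on both arrays (flagged neither as near background nor as masked). This left 45 probes of 29 members, out of 18664 kept probes of the whole array.

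All 4 animals were male Otsuka Long-Evans Tokushima Fatty (OLETF) rats, a strain without a working cholecystokinin A receptor that overeats and grows obese and diabetic on standard chow. In the thiamine group 2 rats had drunk water with 0.2% thiamine (vitamin B1, 2 g per L) for 51 weeks, beginning when they were 4 weeks old. In the untreated group 2 rats had drunk water with 0% thiamine over the same 51 weeks. All were killed when 55 weeks old, under pentobarbital and after 16 h without food, and each liver was put on its own 1-colour CodeLink array. These 4 rats are part of a larger study with 8 rats in each group, and no lean strain is among the groups.

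Nuclear receptors are transcription factors that bind DNA at short repeats of a core motif and are switched by small fat-soluble ligands such as bile acids, oxysterols, fatty acids, retinoids, thyroid hormone and drugs. Many act as pairs with a retinoid X receptor. Without ligand, several hold a corepressor such as Ncor1 that recruits histone deacetylases, and ligand exchanges it for coactivators of the Ncoa and Ppargc1 families. In the liver these receptors set bile acid synthesis, lipid export, fatty acid oxidation in fasting and the clearance of foreign compounds.

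Promoter sequences of the members bear on the retinoid and fasting genes described below. The RefSeq table of the GRCr8 build holds 38 windows for 32 of the 39 members, each with 250 bases before and 50 after an annotated start. A motif was searched on both strands, as an exact match. The core motif AGGTCA stood in windows of 3 members, Esrrg, Nr5a2 and Rarg, and in 16.2% of all 33469 windows. The retinoic acid response element known from Rarb, searched as its own 17 letters with any 5 bases as spacer and not as pairs of AGGTCA, stood in the window of 1 member, Rarb, and in 0.00896% of all windows. The cyclic AMP response element TGACGTCA, the site through which glucagon signalling acts on many fasting genes, stood in windows of Ppargc1a and Nr6a1 and in 1.83% of all windows. The 30 bases around the Rarb element lie on chr15:11336410-11336439 of GRCr8 (plus strand). The 17 bases of the element, in capitals, begin at position 25 after the annotated start. The 250 bases before the Ppargc1a start (chr14:63634058-63634307, plus strand) are shown with TGACGTCA in capitals, at position -181. The 250 bases before the Nr5a2 start (chr13:50984939-50985188, minus strand) are shown with AGGTCA in capitals, at position -134. A match is a description of these letters and not of binding.
Rarb: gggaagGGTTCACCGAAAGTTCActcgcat
Ppargc1a: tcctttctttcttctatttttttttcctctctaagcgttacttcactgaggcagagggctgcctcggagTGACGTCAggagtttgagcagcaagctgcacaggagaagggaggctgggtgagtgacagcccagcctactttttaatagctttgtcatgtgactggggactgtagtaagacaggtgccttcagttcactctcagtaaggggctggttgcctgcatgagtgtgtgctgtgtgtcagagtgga
Nr5a2: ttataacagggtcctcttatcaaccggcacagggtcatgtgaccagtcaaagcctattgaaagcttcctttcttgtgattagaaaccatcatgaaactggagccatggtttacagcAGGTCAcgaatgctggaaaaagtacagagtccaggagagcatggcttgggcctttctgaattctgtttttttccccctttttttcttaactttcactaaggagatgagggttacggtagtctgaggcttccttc

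Between 53.7% and 59.3% of the gene probes were above background on an array. Hepatocyte markers fitted the labelled tissue: 9 of 10 listed had a named probe, all 9 were above background on every array, and albumin (Alb) was at 15.3 (log2) in both group means. Of 9 measured Kupffer cell markers all 9 were higher in the thiamine livers, as were all 7 of the liver endothelium, while 50.7% of all kept genes had a difference above 0. Higher too were all 4 measured lymphocyte markers and the 2 measured adipocyte markers. Hepatocyte markers were 4 higher and 5 lower, and cholangiocyte markers 1 higher and 1 lower. The summed normalized intensity of the Kupffer cell markers was, in units of 1000, 20.2 to 29.1 in the thiamine rats and 12.8 to 19.7 in the untreated rats. That of the endothelial markers was 6.43 to 6.78 against 4.83 to 5.08. Stellate cell markers overlapped between the groups (4.1 to 4.72 against 3.8 to 4.88), and 4 of the 8 named were measured. In whole liver RNA, more cells of a type and more RNA per cell cannot be told apart.

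Most members were above background in this liver. On each of the 4 arrays at least 1 probe of the gene was above background for 26 of the 35 members with a probe (74.3%), compared with 66.2% of 12198 named genes. The members had more probes per gene (62 for 35 genes, against 16753 for 12198), which favours a higher share. Nr2c2 is counted through 2 different probes, neither of them above background on all 4 arrays. Rarg, a retinoic acid receptor, Thra, the thyroid hormone receptor of heart and muscle, and the corepressor Nrip1 were not above background on any array. Ppard was above background on untreated rat 1 only, Nr2f1 on thiamine rat 1 only and the coactivator Ncoa2 on the second rat of each group. Esr1, the estrogen receptor, was above background on 3 arrays and not on untreated rat 1. Esrra and Ppargc1b were above background on 3 arrays and not on untreated rat 2.

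**Figure D1:**
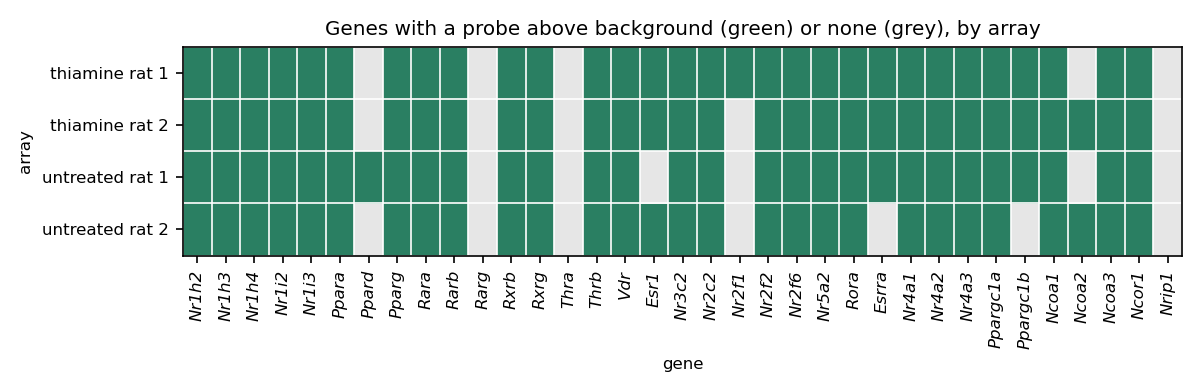
Each column is 1 of the 35 members with a probe and each row 1 array; green marks a gene with at least 1 probe above background and grey a gene with none. The grey cells lie in 9 genes, and Rarg, Thra and Nrip1 are grey on all 4 arrays.

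No member passed the test between the groups, and nearly all differences were small. Each gene is given by its brightest kept probe, as normalized log2 intensity. With limma and Benjamini-Hochberg adjustment over all 18664 kept probes, 0 of 29 members had an adjusted p under 0.05, and 0% of kept probes did. Adjusted p-values of the members ran from 0.481 to 0.994. At an unadjusted p under 0.05 (limma) 2 of 29 members were apart, or 6.9%, beside 6.91% of 8784 kept genes, so that their share was that of the array as a whole. Of the 2, both were higher, beside 3.84% of kept genes higher and 3.07% lower. Of the 29, 15 were higher and 14 lower with thiamine, beside 50.7% and 49.3% of kept genes. Their median difference was 0.01 on the log2 scale, and that of all kept genes was 0.005. Without untreated rat 1 the members' median was -0.15. Esr1, Esrra, Nr2c2 and Ppargc1b were kept only through the thiamine group, since 1 untreated spot of each was near background. For the first 3 of these, which were higher with thiamine, the filter favours that direction. The size of the difference was under 0.5 in 28 of 29 members, and in 94.8% of all kept genes.

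The 95% intervals of limma, which rest on 2 rats per group and on the spread over all probes, stayed within 1 log2 unit of 0 for 27 of the 29 members. Their standard errors ran from 0.18 to 0.32. The values of the 2 groups did not overlap for 14 members (48.3%), 6 higher and 8 lower, beside 37.5% of all kept genes (18.6% higher and 18.9% lower). With 2 rats against 2, a two-sided permutation test of a single gene cannot go below p = 0.333, so no overlap is given as a description only. This count was 10 when all kept probes of a gene were averaged. It was 24 and 26 without untreated rats 1 and 2, where a lone rat is set against 2. A lone rat lies outside the range of 2 others more readily, so 37.5% is no measure for these counts. The share of all kept genes under these settings is not given here.

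**Figure D2:**
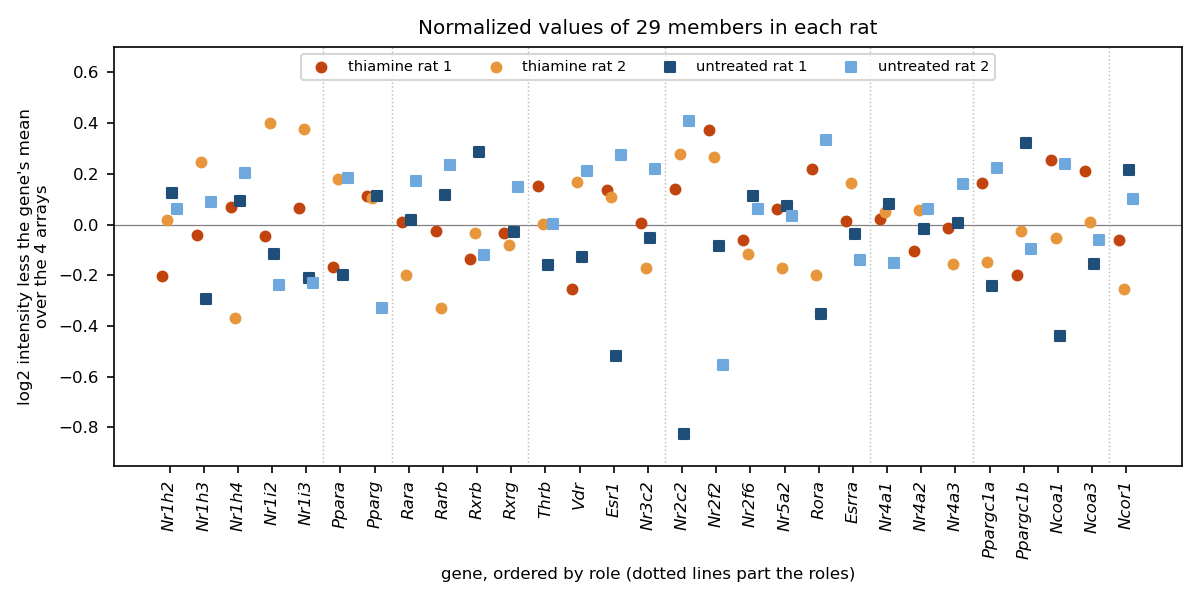
Normalized log2 intensity of 29 members in each rat, less the gene's mean over the 4 arrays (circles thiamine, squares untreated; roles parted by dotted lines). Untreated rat 1 stands lowest for Nr2c2 and Esr1, and both thiamine rats stand above both untreated rats for Nr1i2, Nr1i3 and Nr2f2.

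Among the receptors of foreign compounds, Nr1i3 and Nr1i2 were higher in both thiamine livers without passing the test. Nr1i3 (CAR, NCBI gene 65035), the receptor that induces the Cyp2b enzymes in answer to phenobarbital, was at 11.39 and 11.70 in thiamine rats 1 and 2 and at 11.11 and 11.09 in untreated rats 1 and 2. The groups did not overlap, and the thiamine rats differed from each other more than the untreated ones did. Its difference was 0.44 ± 0.19 (log2, moderated SE, n = 2 per group; 1.36-fold, limma adjusted p = 0.699). Nr1i2 (PXR, NCBI gene 84385), which responds to many drugs and steroids and induces the Cyp3a enzymes, was at 10.78 and 11.22 with thiamine and at 10.70 and 10.58 without. Thiamine rat 1 lay close to untreated rat 1 and thiamine rat 2 stood above the rest. The difference of Nr1i2 was 0.35 ± 0.20 (limma adjusted p = 0.816), and without thiamine rat 2 it was 0.13, while that of Nr1i3 was then 0.29.

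Genes that these receptors are known to induce were higher in most cases. Of 17 measured PXR and CAR targets 14 were higher and 3 lower, and their median was 0.28 against 0.005 over all kept genes. With all 4 rats fitted without a replicate block, none of the 17 passed adjusted over all probes. At an unadjusted p under 0.05 (limma) 6 were higher, beside 3.84% of all kept genes in that direction. Cyp3a23-3a1, the main inducible Cyp3a enzyme of rat liver, was at 14.26 and 14.54 with thiamine and at 13.99 and 13.76 without, a difference of 0.53 ± 0.19. Por, which passes electrons to all microsomal P450 enzymes, was at 10.84 and 11.08 against 9.70 and 9.63, a difference of 1.29 ± 0.18 (limma adjusted p = 0.216). Por passed when untreated rat 1 was left out (limma adjusted p = 0.0487). Both groups were clear of each other for these 2 genes. Probes of the Cyp3a family may read several copies. Cyp2b2, the classical CAR target, named here after its values were seen, was at 10.96 and 10.98 with thiamine and at 10.48 and 12.27 without. Its groups overlapped, with untreated rat 2 highest, and its difference was -0.41 ± 0.42. The list was chosen with earlier results of these livers known, so its direction is not independent evidence.

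The bile acid and oxysterol receptors differed in sign. Nr1h4 (FXR, NCBI gene 60351), the bile acid receptor that induces the repressor Nr0b2, was at 12.91 and 12.48 in the thiamine rats and at 12.94 and 13.05 in the untreated rats. Thiamine rat 2 was lowest, and thiamine rat 1, whose spot was flagged as contaminated, lay just below untreated rat 1. The difference was -0.30 ± 0.20, with an interval from -0.74 to 0.14. With the flagged spot set to missing, which leaves 1 thiamine rat, it was -0.51, and without thiamine rat 2 it was -0.08. Nr0b2 itself (SHP), a receptor without a DNA-binding domain, was at 11.22 and 11.05 with thiamine and at 12.21 and 11.69 without, a difference of -0.82 ± 0.21 (limma adjusted p = 0.303). Of 9 measured FXR targets 4 were higher and 5 lower, around a median of -0.05. Abcb11, the bile salt export pump, stood at 0.26 ± 0.18, on the other side from Nr0b2. Counted at an unadjusted p under 0.05 (limma), 2 of these 9 were lower, Nr0b2 among them, and 0 higher. The shares of all kept genes were 3.07% lower and 3.84% higher. None of the FXR targets passed adjusted over all probes.

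Nr1h3 (LXR alpha, NCBI gene 58852), the oxysterol receptor of liver and macrophages, was at 10.86 and 11.15 with thiamine and at 10.61 and 10.996 without, and the groups overlapped. Its difference was 0.20 ± 0.20, which became 0.01 without untreated rat 1 and 0.39 without untreated rat 2. The same step with the thiamine rats gave 0.06 (rat 2 left out) and 0.35 (rat 1 left out). Nr1h2 (LXR beta, NCBI gene 58851), which is found in most tissues, had 2 kept probes of opposite sign: -0.18 ± 0.18 on the brighter and 0.17 ± 0.19 on the dimmer. Its values on the brighter probe were 9.39 and 9.61 in the thiamine rats and 9.71 and 9.65 in the untreated rats. The LXR targets had a median of -0.01, with 4 of 10 measured genes higher and 6 lower. Of these 10, 2 were higher and 0 lower at an unadjusted p under 0.05 (limma), beside 3.84% and 3.07% of all kept genes. None of the LXR targets passed adjusted over all probes. The cholesterol exporters Abca1 and Abcg5 were at -0.20 ± 0.19 and -0.01 ± 0.19. The 9 Kupffer cell markers described above were all higher with thiamine; their part in the value of Nr1h3 was not tested.

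The fatty acid receptors differed by less than the spread within a group. Ppara (NCBI gene 25747), which drives fatty acid oxidation and ketone formation in fasting, was at 8.71 and 9.06 with thiamine and at 8.68 and 9.06 without. The second rat of each group was higher than the first, so that the spread within each group was larger than the difference of 0.01 ± 0.21 (interval from -0.45 to 0.47). It turned to -0.18 when untreated rat 1 was left out and to -0.16 when thiamine rat 2 was. Pparg (NCBI gene 25664), the receptor of fat storage, was at 9.12 in both thiamine rats and at 9.12 and 8.68 in the untreated rats. Only untreated rat 2 was apart, and the difference of 0.22 ± 0.20 was -0.004 without it. A second probe of Pparg gave 0.25 ± 0.26, with untreated rat 2 (6.98) again lowest and here near background. This second probe was kept only through the thiamine group, so the filter favours its direction.

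Among PPAR alpha targets 11 of 23 measured genes were higher and 12 lower, around a median of -0.03. At an unadjusted p under 0.05 (limma) 4 were higher and 0 lower, beside 3.84% and 3.07% of all kept genes, and none passed adjusted over all probes. Cyp4a1, a fatty acid hydroxylase and a classical target, was at 13.91 and 14.31 with thiamine and at 14.03 and 14.16 without. Its groups overlapped, and its difference of 0.01 ± 0.20 was -0.009 with median scaling. The list thus held both directions around a receptor whose own difference was near 0.

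Of the retinoid receptors all 4 measured members were lower with thiamine on their brightest probe, none past the test, and the mean of all kept probes turned Rara to 0.16 and Rxrg to 0.004. For Rara that mean includes a dim probe described below. Rarb (NCBI gene 24706), the retinoic acid receptor whose start region carries the response element shown above, was at 9.53 and 9.23 in the thiamine rats and at 9.67 and 9.79 in the untreated rats. The groups did not overlap. Its difference was -0.35 ± 0.19 (limma adjusted p = 0.808, interval from -0.77 to 0.06). A second, dimmer probe of Rarb was at 7.60 and 7.62 with thiamine and at 8.43 and 8.12 without, also without overlap. There the difference was -0.67 ± 0.19 (limma unadjusted p = 0.00476, adjusted p = 0.366), so that both probes of this gene were on the same side. The difference on the brighter probe became -0.20 when thiamine rat 2 was left out and -0.51 when thiamine rat 1 was.

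Rara (NCBI gene 24705), the retinoic acid receptor of most tissues, had kept probes that disagreed. The brighter was at 8.05 and 7.85 with thiamine and at 8.06 and 8.22 without, a difference of -0.19 ± 0.19. The dimmer was flagged near background in both untreated rats and above it in both thiamine rats. It was higher with thiamine by at least 1.19-fold, taking for each untreated array the higher of its own signal and the lowest signal above background. Its measured means were 7.53 with thiamine and 7.03 without. This probe passed the filter only through the thiamine group, where it is high, so the filter favours its direction and it is no evidence against that of the brighter probe. Rxrb and Rxrg, pairing partners of the other receptors, were at -0.17 ± 0.20 and -0.12 ± 0.18. The 3 kept probes of Rxrg, a form best known from muscle and brain, gave -0.12, 0.15 and -0.02. On thiamine rat 1 the spots of the probes at -0.12 and 0.15 were flagged as contaminated, and that of the probe at -0.02 carried another flag. With contaminated spots missing, which leaves 1 thiamine rat, the brightest probe gave -0.14. Retinoic acid receptor targets were likewise near 0: of 5 measured 1 was higher and 4 lower, around a median of -0.09. Cyp26a1, which breaks down retinoic acid and is induced by it, was at 8.18 and 8.34 against 8.15 and 8.55, and Dhrs3, a retinaldehyde reductase, differed by 0.01 ± 0.18. Lrat, the retinyl ester enzyme of stellate cells, was not above background on both arrays of either group.

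**Figure D3:**
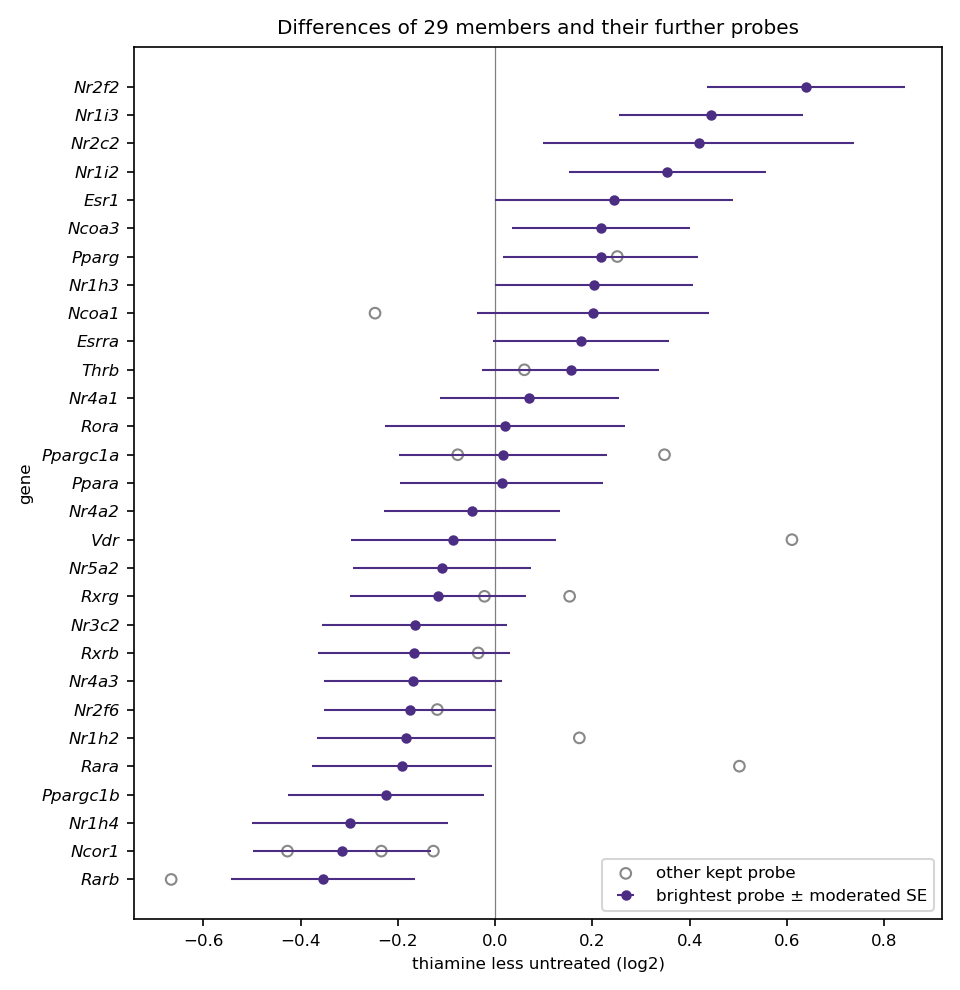
Thiamine less untreated (log2) for 29 members: filled points are the brightest kept probe with its moderated SE, open circles the other kept probes of that gene. Probes of Vdr, Rara, Nr1h2 and Ncoa1 fall on both sides of 0, and all kept probes of Rarb and Ncor1 fall below it.

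Hormone receptors showed no shared direction. Thrb (NCBI gene 24831), the main thyroid hormone receptor of liver, was at 11.41 and 11.27 with thiamine and at 11.11 and 11.27 without, a difference of 0.16 ± 0.18. The second rats of both groups were at nearly the same value, and its second kept probe gave 0.06 ± 0.21. Among thyroid hormone receptor targets 4 of 5 measured genes were higher, with a median of 0.06. Thrsp, a lipogenic target that the hormone induces, was at -0.17 ± 0.24, the deiodinase Dio1 at 0.005 ± 0.18 and malic enzyme Me1 at 0.06 ± 0.18. Vdr (NCBI gene 24873), the vitamin D receptor, which is scarce in hepatocytes, had probes of opposite sign. The brighter was at 7.67 and 8.09 with thiamine and at 7.79 and 8.13 without, and the other at 8.12 and 8.20 against 8.05 and 7.05. On that second probe untreated rat 2 was near background and far below the rest, and the difference was 0.61 ± 0.28. This probe too was kept only through the thiamine group. Nr3c2, the mineralocorticoid receptor, was at 8.83 and 8.65 against 8.77 and 9.04, a difference of -0.17 ± 0.19 with overlap. Esr1 was at 7.80 and 7.77 with thiamine and at 7.15 and 7.94 without, a difference of 0.24 ± 0.24. Esr1 was -0.15 without untreated rat 1, the array on which it was not above background.

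Nr2f2 (COUP-TFII, NCBI gene 113984) had the largest difference among the members on their brightest probes with the processing used here. On background-subtracted intensities and in the deposited value table Nr2c2 was further apart (0.86 in both, against 0.78 for Nr2f2). The second probe of Rarb, with the processing used here, was at -0.67. Nr2f2 is an orphan receptor that marks veins and other endothelium and stromal cells, and is also made in hepatocytes in fasting. It was at 8.90 and 8.79 in thiamine rats 1 and 2 and at 8.44 and 7.97 in untreated rats 1 and 2. Both thiamine rats stood above both untreated ones, and untreated rat 2 was lowest. The difference was 0.64 ± 0.20 (1.56-fold, limma unadjusted p = 0.00984, adjusted p = 0.481), and leaving out untreated rat 2 made it 0.40, and untreated rat 1 0.87. The spot of thiamine rat 1 was flagged as contaminated, and without it, with 1 thiamine rat left, the value was 0.58. Beside it, all 7 measured endothelial markers were higher with thiamine, by 0.018 to 0.77, with a median of 0.28. Lyve1 was at 0.77 ± 0.20 and Pecam1 at 0.55 ± 0.18, while Stab2 was at 0.27 ± 0.27 with overlap. Stellate cell markers did not share that direction: of 4 measured 2 were higher and 2 lower, around a median of -0.003. The part of these cell types in the value of Nr2f2 was not tested.

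Other orphan receptors were nearer to 0. Nr2f6, a relative of Nr2f2, was at 9.83 and 9.78 with thiamine and at 10.004 and 9.95 without, so that the groups were apart by a small step of -0.18 ± 0.18. Its second probe gave -0.12 ± 0.18. Nr5a2 (LRH-1), which switches on bile acid synthesis genes and whose promoter window is shown above, was at 8.19 and 7.95 against 8.20 and 8.16. It differed by -0.11 ± 0.18. Nr2c2 was at 7.53 and 7.67 with thiamine and at 6.56 and 7.80 without. Untreated rat 1 was near background, and the difference of 0.42 ± 0.32 became -0.20 when that rat was left out and 1.04 when untreated rat 2 was. With all 4 rats it was 0.86 both on background-subtracted intensities and in the deposited value table. Esrra, the receptor of mitochondrial genes, was at 0.18 ± 0.18.

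Rora, which activates Bmal1 in the circadian clock in competition with Nr1d1, was at 9.51 and 9.09 with thiamine and at 8.94 and 9.62 without. Its groups overlapped widely, and its difference was 0.02 ± 0.25, and it became 0.36 when untreated rat 2 was left out and -0.32 when untreated rat 1 was. Several clock genes had larger values of the difference. Nr1d1, the clock repressor also known as REV-ERB alpha, was at 10.39 and 10.42 against 10.96 and 10.73. Its difference was -0.45 ± 0.18 (limma adjusted p = 0.67). Bmal1 was at -1.002 ± 0.30 (limma adjusted p = 0.433). Leaving out untreated rat 2 made it -0.43, and leaving out untreated rat 1 made it -1.57 and past the threshold (limma adjusted p = 0.0191). Per2 was at 0.79 ± 0.19, or 0.44 over all its kept probes. Dbp was at 0.43 ± 0.35, which became -0.25 without untreated rat 2 and 1.12 without untreated rat 1. Of 14 measured clock genes 8 were higher and 6 lower, and 5 were apart at an unadjusted p under 0.05 (limma), or 35.7% beside 6.91% of all kept genes. None of them passed with all 4 rats fitted without a replicate block. The hour of death of each rat was not used here, and the part of clock phase in the values of Rora and Nr1d1 was not tested.

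The NR4A receptors, which need no ligand and are induced within an hour of many stimuli, had small differences, none past the test. Nr4a1 was at 9.05 and 9.08 with thiamine and at 9.11 and 8.88 without, Nr4a2 at 11.01 and 11.17 against 11.10 and 11.18. Both overlapped, with differences of 0.07 ± 0.18 and -0.05 ± 0.18. Nr4a3 was at 7.92 and 7.78 against 7.94 and 8.09, a difference of -0.17 ± 0.18. Other immediate early genes lay in both directions: Egr1 was at -0.77 ± 0.18, Fos at 0.61 ± 0.32 and Jun at 0.30 ± 0.19. Egr1 was at -0.46 over all its kept probes. Without untreated rat 2 Fos was at 0.10 and Jun at 0.14, and without untreated rat 1 they were at 1.13 and 0.47. Fos was also at 0.28 when thiamine rat 2 was left out and at 0.95 when thiamine rat 1 was. Of 11 measured immediate early genes 6 were higher and 5 lower, and none passed. At an unadjusted p under 0.05 (limma) 4 were apart, 3 higher and 1 lower, or 36.4% beside 6.91% of all kept genes. Their part in the NR4A values was not tested.

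The coactivator of fasting, Ppargc1a (PGC-1 alpha, NCBI gene 83516), was near 0. Glucagon induces it, and it turns on gluconeogenesis and mitochondrial genes. Its brightest probe was at 8.22 and 7.91 with thiamine and at 7.82 and 8.28 without, with overlap and a difference of 0.02 ± 0.21. The other 2 kept probes gave -0.08 ± 0.19 and 0.35 ± 0.28, and the remaining probe was not above background on any array. The probe at 0.35 was near background in untreated rat 1 (6.91). It was kept only through the thiamine group, so the filter favours its direction. Ppargc1b, its close relative, was at 8.11 and 8.28 against 8.62 and 8.21, a difference of -0.23 ± 0.20 with overlap. The spot of untreated rat 2 was flagged as contaminated and near background, and with contaminated spots missing the difference was -0.44. It was -0.02 without untreated rat 1 and -0.14 without thiamine rat 1. Of 9 measured genes driven by these coactivators 6 were higher and 3 lower, around a median of 0.07. Among them 1 was lower and 0 higher at an unadjusted p under 0.05 (limma), beside 3.07% and 3.84% of all kept genes. The gluconeogenic Pck1 and G6pc1 were at 0.18 ± 0.22 and 0.16 ± 0.18, and cytochrome c (Cycs) was at 0.06 ± 0.18.

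Coactivators of the Ncoa family, which link ligand-bound receptors to histone acetyltransferases, gave mixed values. Ncoa3 was at 10.11 and 9.91 with thiamine and at 9.74 and 9.84 without. Its groups did not overlap, with a difference of 0.22 ± 0.18 and no pass. Ncoa1 had kept probes of opposite sign: 0.20 ± 0.24 on the brighter, where untreated rat 1 was lowest and without which it was -0.14, and -0.25 ± 0.18 on the other, where the groups did not overlap. Over the members with several kept probes, 6 of 12 had probes of both signs (50.0%), as had 40.3% of 1949 such genes on the array.

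The corepressor Ncor1 (NCBI gene 54299) was lower with thiamine on each of its 4 kept probes. Its brightest probe was at 9.94 and 9.74 in thiamine rats 1 and 2 and at 10.2 and 10.1 in untreated rats 1 and 2. The groups did not overlap there, and the difference was -0.32 ± 0.18 (limma adjusted p = 0.821, interval from -0.72 to 0.09). The probe closest to it in brightness was at 9.90 and 9.64 against 10.2 and 10.2, a difference of -0.43 ± 0.18 (limma unadjusted p = 0.0414, adjusted p = 0.705). These 2 probes come from the same sequence record and are not independent. Another probe was at -0.23 ± 0.18 without overlap, and its spot on untreated rat 2 was flagged as contaminated. The dimmest was at -0.13 ± 0.21 with overlap. On that dimmest probe untreated rat 1 (7.2) was near background and below both thiamine rats. Only untreated rat 2 (7.7) stood above them. Over the fits without 1 rat the value of the brightest probe stayed between -0.41 and -0.22.

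**Figure D4:**
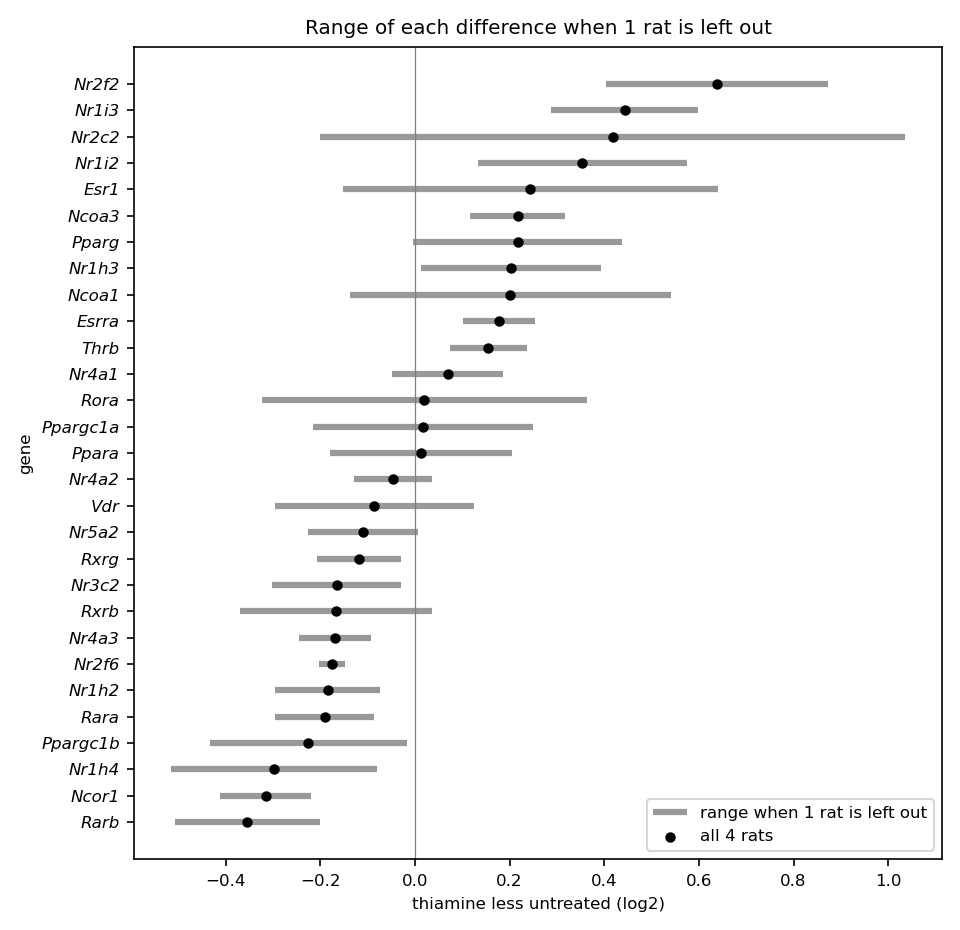
Grey bars give the lowest and highest difference of each member (log2) when 1 of the 4 rats is left out, and black points the difference with all 4 rats. The bars of Nr2f2, Nr1i3, Nr1i2, Rarb and Ncor1, among other members, lie on 1 side of 0. Where the groups do not overlap, as for these genes, leaving out 1 rat cannot change the sign. The bar of Nr2c2 runs from -0.20 to 1.04.

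Receptors and coregulators outside the list were read from lists of their own. Of 8 other nuclear receptors measured, 4 were higher and 4 lower, and Nr0b2 and Nr1d1, both described above, were the 2 at an unadjusted p under 0.05 (limma), both lower, beside 3.07% of all kept genes in that direction. Hnf4a, the receptor that maintains hepatocyte identity, was at 10.1 and 10.3 with thiamine and at 10.3 and 10.2 without, a difference of -0.04 ± 0.18. Of 20 other coregulators measured, 12 were higher and 8 lower, around a median of 0.03 and none at an unadjusted p under 0.05 (limma). The acetyltransferases Crebbp and Ep300 were at 0.21 ± 0.18 and 0.08 ± 0.18.

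**Figure D5:**
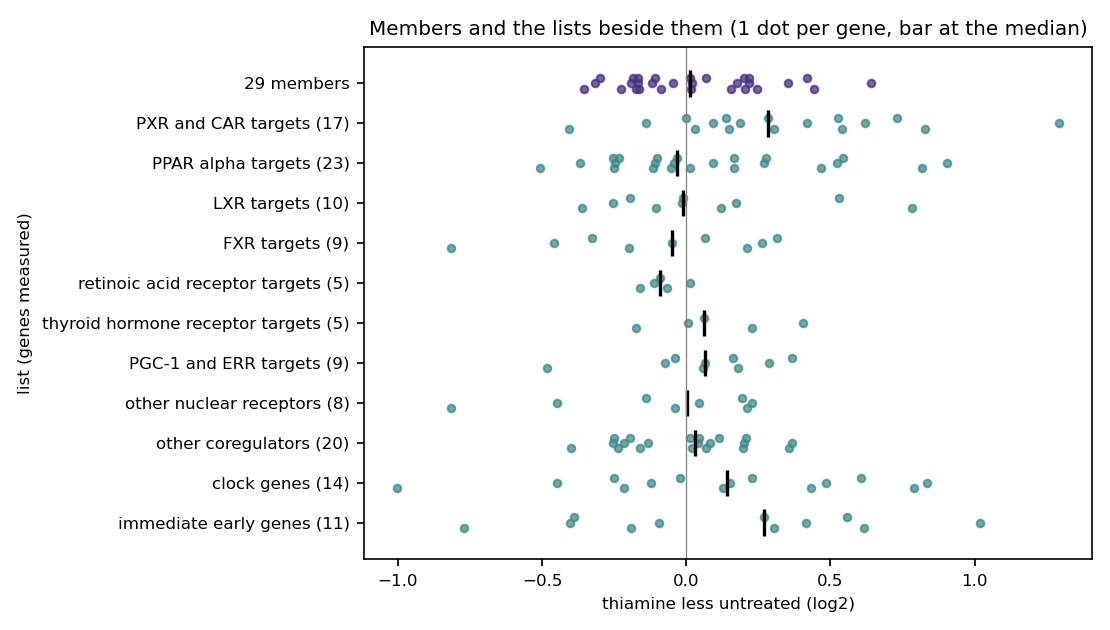
Thiamine less untreated (log2), 1 dot per measured gene, for the 29 members and for 11 lists of target genes and related regulators; black bars mark medians. The members lie between -0.35 and 0.64 around a median of 0.01, and the PXR and CAR targets around 0.28.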

How the data were processed

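Liver RNA of 2 thiamine and 2 untreated rats was measured on 4 slides, 1 array each. Per the file headers, CodeLink Expression Analysis wrote, as an intensity on a linear scale, each spot's mean, its local background and a quality flag. The deposited value table, used as an alternative, holds intensities of unstated processing. Here, spot mean and background intensities were corrected with normexp (offset 50) over 35129 features; 1280 control features were then left out and log2 values were quantile normalized. Flags L (near background) and M (masked) defined probes not above background. Symbols of the platform annotation were updated through NCBI gene identifiers with RefSeq GRCr8: 16753 probes had 1 symbol, 165 several and 16931 none. The test was limma 3.58.1 (R 4.3.3), two-sided, with Benjamini-Hochberg over 18664 kept probes; residual degrees of freedom were 2, or 10.8 after moderation. SEs are moderated, so for genes whose rats differ widely they are smaller than the gene's own values would give. The fit was tested on simulated data. Members and lists were chosen with earlier results of these data known. All 39 members are described, and of other lists the first 3 genes in written order. The number of arrays limits precision.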

Additional observations from a re-analysis of the deposited data

How the results depend on the processing

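No member was called under any of the 13 alternatives run, and no probe of the array was called under any that kept all 4 rats unblocked. Leaving out 1 rat gave 1 to 65 called probes (65 without untreated rat 1), a median difference of the members from -0.15 to 0.035, and 17 to 26 members without overlap. The lone rat of such a fit is assumed to vary like the others. With a lone rat no overlap is reached more readily, and its share over all kept genes is not given for these fits. The labels give no pairing of the rats, and the correlation of same-numbered deviations was -0.0737 over 18650 probes. This is 1 value for the whole array, so it cannot exclude a pattern shared by replicate number in part of the probes. With the replicate block 126 probes and 0 members were called. Among the other named genes, that block called Por (limma adjusted p = 0.000886) and Bmal1 (limma adjusted p = 0.0305), which were also called without untreated rat 1. No other gene followed through the alternatives was called under any of them. Cyp2b2 and the cell type markers were not followed through the alternatives. Of the 29 members, 15 kept their sign in all alternatives run and 14 changed it. For members whose groups do not overlap, leaving out 1 rat cannot change the sign. The mean of all kept probes turned Rara to 0.155, Rxrg to 0.004, Vdr to 0.262 and Ncoa1 to -0.023. Median scaling turned Cyp4a1 to -0.009 and Abcg5 to 0.013, and setting contaminated spots to missing turned Cyp4a1 to -0.087. Leaving out 1 rat gave these ranges (log2) among members that changed sign: Ppara -0.179 to 0.206, Pparg -0.004 to 0.437, Rxrb -0.37 to 0.035, Vdr -0.296 to 0.124, Esr1 -0.151 to 0.64, Nr2c2 -0.2 to 1.036, Nr5a2 -0.225 to 0.006, Rora -0.323 to 0.363, Nr4a1 -0.048 to 0.187, Nr4a2 -0.128 to 0.035, Ppargc1a -0.216 to 0.249 and Ncoa1 -0.138 to 0.54. Among other named genes they were Hnf4a -0.129 to 0.053, Cyp4a1 -0.186 to 0.21, Abcg5 -0.18 to 0.157, Thrsp -0.509 to 0.163, Dio1 -0.087 to 0.098, Me1 -0.021 to 0.141, Cyp26a1 -0.285 to 0.105, Dhrs3 -0.077 to 0.104, Pck1 -0.09 to 0.447, Cycs -0.018 to 0.133 and Dbp -0.253 to 1.12. Without a change of sign, but by over 1.5 times, the same step moved Nr1h2 -0.295 to -0.073, Thrb 0.075 to 0.236, Nr3c2 -0.302 to -0.029, Esrra 0.101 to 0.253, Nr4a3 -0.246 to -0.092, Ncoa3 0.117 to 0.318, Abca1 -0.339 to -0.052 and G6pc1 0.046 to 0.277. The mean of all kept probes moved Nr1h2 to -0.005 and Crebbp to 0.108. The cause of these changes was not tested. A block for slide was not run, because each slide holds 1 array.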
